A study of Mus musculus with 800 samples.

Results

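The genes described are the 46 genes of 28963 in the table whose symbols begin with Gsta, Gstk, Gstm, Gsto, Gstp, Gstt, Ugt or Aldh, leaving out Gstm7 and symbols marked as pseudogenes. They comprise 16 glutathione S-transferase (Gst), 9 UDP-glycosyltransferase (Ugt) and 21 aldehyde dehydrogenase (Aldh) genes, all annotated as protein coding. Cells came from the vomeronasal organs of 7 male mice of the strain B6;129P2-Omptm3Mom/MomJ, all OMP(GFP/wt) and aged 66 days, so every cell carried 1 allele in which GFP is expressed from the olfactory marker protein gene Omp. Organs were pooled as 3 and 4 animals, and cells that were positive for GFP and Hoechst and negative for the dead-cell dye DRAQ7 were loaded on 1 microfluidic chip of 800 capture chambers for 3′ end sequencing. By their labels, 49.2% of the chambers held a single cell and 40.6% were empty, 63 held multiple cells and 18 a putative single cell, and the label of every chamber gives the cell type as vomeronasal sensory neuron.

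Glutathione S-transferases join glutathione to reactive compounds, UDP-glycosyltransferases join sugar acids or sugars to small lipophilic molecules, and aldehyde dehydrogenases oxidise aldehydes to acids. In the nose such enzymes are known from the sustentacular cells, the supporting cells of the sensory epithelium, where they clear odorants and inhaled toxicants. The vomeronasal epithelium has an apical layer of neurons that use the G protein alpha subunit Gnai2 and mostly V1R receptors, and a basal layer that uses Gnao1 and V2R receptors.

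Single-cell chambers were divided by genes that are not members. Sox2-positive chambers had at least 10 counts of Sox2, a transcription factor of sustentacular and stem cells (20 chambers). Of the rest, 63 were basal (Gnao1 at least 10 counts and over 3 times Gnai2), 39 were left unclassed, 37 of them because the subunits lay within 3-fold, and the others, 69.04% of all single cells, were apical (the reverse of basal). The apical and basal chambers together are called neurons here (85.03% of single cells). Only 1 single cell had 5 to 9 counts of Sox2 and 3 had 10 to 19. Nothing in the labels links a chamber to a pool of mice, so each group was 1 unit and no test between groups was possible.

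Near-identical copies matter for 3′ tags, and 1 pair among the members is such a case. Gstp1 (chromosome 19, 4035407–4037985, minus strand, GRCm38) and Gstp2 (chromosome 19, 4040285–4046023, minus strand) lie next to each other and encode the pi-class transferases. Their coding sequences of 633 bases differ at 12 bases (98.1% identical), and the 66 bases after the stop codon in each annotated transcript are identical at 66 of 66. A stretch of 120 coding bases that holds 6 of the 12 differing bases is shown, with those bases in capitals.

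Gstp1: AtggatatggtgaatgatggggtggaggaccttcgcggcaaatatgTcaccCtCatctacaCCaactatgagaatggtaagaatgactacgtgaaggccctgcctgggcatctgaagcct

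Gstp2: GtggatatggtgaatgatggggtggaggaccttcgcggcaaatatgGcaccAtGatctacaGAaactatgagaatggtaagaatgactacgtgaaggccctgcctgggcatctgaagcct

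In the deposited counts, the ratio of Gstp1 to Gstp2 was nearly constant. Over the 403 chambers with at least 20 counts of both, its median was 1.10 and its range 0.848 to 1.45. In the empty chambers the median was 1.09, and in the 20 Sox2-positive chambers 1.13. The counts of Gstp1 and Gstp2 are therefore read below as 1 joint signal whose division is uncertain.

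**Figure D1:**
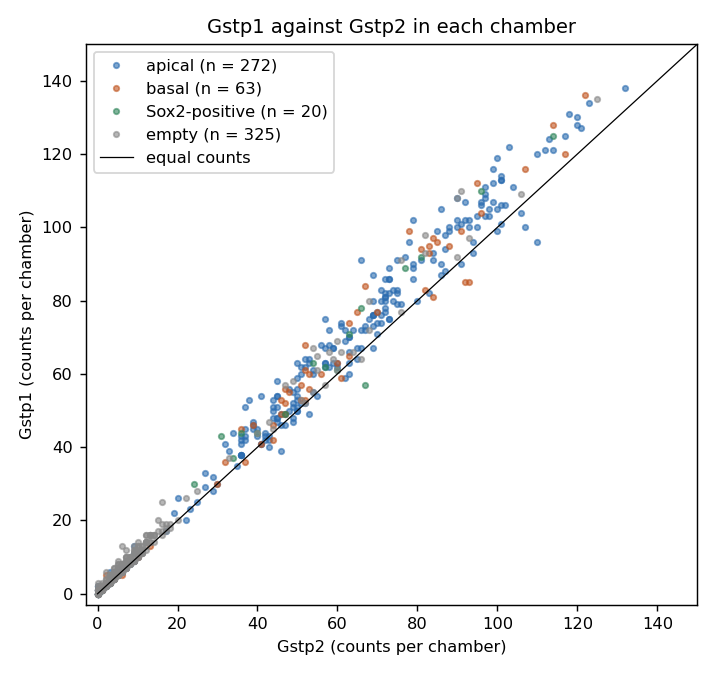
Counts of Gstp1 (vertical axis) against Gstp2 (horizontal axis) in each chamber, coloured by group, with the line of equal counts. Points of all 4 groups follow 1 narrow band slightly above the line, with a median ratio of 1.10 where both genes had at least 20 counts.

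Of the 46 members, 38 shared no 50-base word of their last 500 transcript bases with another member. The tail of Ugt2a2 was found whole in Ugt2a1 and that of Ugt1a2 in Ugt1a9, genes not analysed here, so counts given for Ugt2a2 and Ugt1a2, values of 0 included, cannot be assigned to these genes alone.

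Promoters of this enzyme class are known for the antioxidant response element, which the factor Nrf2 (gene Nfe2l2) binds. Its core, TGACNNNGC, was looked for on both strands in windows from 250 bases before to 50 after the start of each gene (RefSeq, GRCm38.p6). It occurred in 4 of the 38 members with a window (10.5%) and in 14.0% of the 27025 genes with one. The 4 were Gsta3, Aldh9a1, Aldh1a2 and Gstm5. The windows of Gsta3, high in Sox2-positive cells, and of Gstm5, found in all classes, are shown upstream of the start with the match in capitals, as contrasting examples. The stretches are chr1:21240335-21240584 (plus strand) for Gsta3 and chr3:107895604-107895853 (plus strand) for Gstm5.

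Gsta3: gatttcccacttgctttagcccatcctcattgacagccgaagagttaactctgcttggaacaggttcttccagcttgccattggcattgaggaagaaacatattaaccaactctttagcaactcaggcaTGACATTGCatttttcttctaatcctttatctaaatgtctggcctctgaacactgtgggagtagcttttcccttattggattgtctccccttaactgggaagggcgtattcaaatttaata

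Gstm5: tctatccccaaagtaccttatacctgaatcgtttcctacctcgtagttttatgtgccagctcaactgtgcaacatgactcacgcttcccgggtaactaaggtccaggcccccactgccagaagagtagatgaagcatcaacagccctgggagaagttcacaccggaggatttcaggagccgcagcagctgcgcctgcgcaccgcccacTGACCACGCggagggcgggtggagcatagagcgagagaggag

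The values were counts of unique molecular identifiers. Median total counts were 150392 in apical, 153674 in basal, 113064 in Sox2-positive and 20731 in empty chambers (4501 to 319287 in the empty ones). The counts of a gene were clumped: over the members in neurons, 83.6% of values were 0, 8.01% were 1 to 9 and 8.40% were 10 or more, and the last had a median of 45. Intervals on summed counts, which cover counting error only and take all counts of a chamber as independent, are therefore too narrow. The share of chambers with 10 or more counts (a detected chamber below), with its exact Clopper-Pearson 95% interval, is given beside them.

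The fixed markers were compared between the classes. All 5 apical markers and all 5 basal markers (Gnai2 and Gnao1, which set the classes, among them) were higher in their own class. Of the 10 sustentacular markers, 7 could be tested and 6 of these, Sox2 itself included, were higher in Sox2-positive cells than in neurons, among them Cbr2, Cyp2a5 and Krt18. Muc2 was lower, and Cyp1a2, Ermn and Sec14l3 had 0 counts in all 20 Sox2-positive chambers. Krt18 and Krt8 were also detected in 61 and 56 of 63 basal neurons, against 6 for Cbr2 and 0 for Cyp2a5. Cyp2g1 was called higher on 1 detected chamber of 20. Per 10000 counts of a chamber, the summed level of the list ran from 2.86 to 51.6 in Sox2-positive (median 39.4), from 0 to 28.05 in apical (median 1.63), from 3.19 to 19.1 in basal (median 8.38) and from 0 to 70.1 in empty chambers (median 5.53). The label of these 20 chambers is vomeronasal sensory neuron. Omp, which marks mature ones, reached 10 counts in 11 of them and 50 counts in 6, with a median of 14.5 against 90 in neurons and 21 in empty chambers.

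Sox2-positive cells held far more Gst and Ugt messages than neurons did, while their Aldh messages differed gene by gene. The members took 0.380% of all counts outside receptor genes in Sox2-positive cells, against 0.132% in apical and 0.129% in basal neurons and 0.127% in empty chambers. By family, the summed level in Sox2-positive cells against neurons was 3076 against 1028 CPM (counts per 1000000 counts of the group without receptor genes) for Gst, 263.2 against 0.873 for Ugt and 458 against 283.02 for Aldh. A gene was called when it had at least 50 counts over both groups, a mean of at least 1 count in the higher group, at least 2-fold difference, and at least 1.5-fold the same way in chambers with title numbers 1 to 10 and 11 to 20. Of the 34 members with enough counts, 15 were called higher in Sox2-positive cells (44.1%, against a background of 11.1% of 17807 genes) and 3 higher in neurons (8.82%, against 19.1%). The median log2 ratio was 1.46 over the members and −0.32 over all genes. By the share of detected chambers alone, intervals did not overlap for 12 of 37 members higher in Sox2-positive cells (background 4.85%) and for 0 higher in neurons (background 5.54% of 19626 genes).

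**Figure D2:**
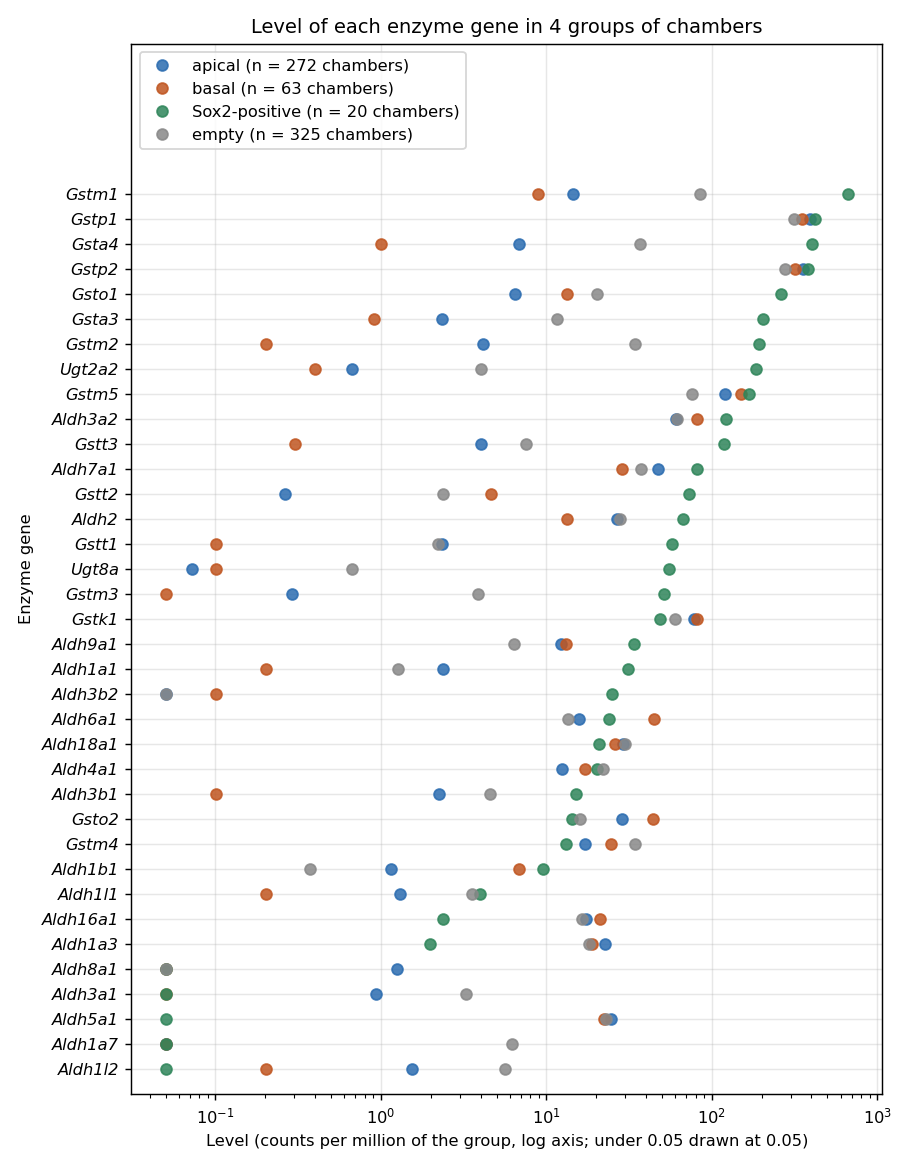
Level of each of the 36 enzyme genes with at least 50 counts (vertical axis, ordered by level in Sox2-positive chambers) in CPM on a log axis, for apical, basal, Sox2-positive and empty chambers. Gstm1, Gsta4, Gsto1, Gsta3, Gstm2 and Ugt2a2 stand far to the right in Sox2-positive chambers, whereas Gstp1, Gstp2 and Gstm5 lie close together in all 4 groups.

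The mu-class genes on chromosome 3 were divided. Gstm1 (chromosome 3, 108012255–108017973, minus strand), a broad conjugating enzyme, had a median of 84.5 counts in the 20 Sox2-positive chambers (lowest 0, quartiles 52.5 and 126.8), and a median of 0 and a highest value of 78 in neurons. It was detected in 18 of 20 Sox2-positive chambers (90% [68.3–98.8]) and in 4.48% [2.53–7.28] of neurons, and its level was 49.6-fold [45.3–54.2] higher (666 against 13.4 CPM). The groups overlapped only because 2 Sox2-positive chambers were at 0 and 15 neurons had 10 or more counts. Gstm2 was detected in 10 of 20 chambers and in 1.19% of neurons, 57.1-fold [47.98–68.3] apart. Gstm3 never exceeded 16 counts in a Sox2-positive chamber, and 7 of 20 reached 10, against 0 neurons (ratio 220 [121.9–437]). Of the 50-base words of the Gstm1 tail, 15.1% recurred in Gstm3 and 15.6% in the pseudogene Gstm2-ps1. Of those of the Gstm3 tail, 0.89% recurred in Gstm1.

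Gstm4 and Gstm5 did not follow their neighbours. Gstm5 (chromosome 3, 107895821–107898686, plus strand) was detected in 40% [19.1–63.95] of Sox2-positive chambers and in 43.6% [38.2–49.1] of neurons, with a ratio of 1.32 [1.19–1.46]. Gstm4 had a ratio of 0.71 [0.48–1.00], and Gstm6 had 0 counts in both groups.

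Among alpha-class genes, Gsta4, whose enzyme conjugates the lipid peroxidation product 4-hydroxynonenal, had a median of 54.5 counts in Sox2-positive chambers (lowest 0, quartiles 38.2 and 65.2), and a median of 0 and a highest value of 61 in neurons. It was detected in 18 of 20 chambers, the same number as Gstm1, against 1.49% [0.49–3.45] of neurons (70.9-fold [62.2–80.99]). Gsta3 had 0, 32 and 62 counts as the lowest, median and highest, and was detected in 12 of 20 chambers (60% [36.1–80.9]) against 0.60% of neurons (99.4-fold [80.5–123.7]). Both genes were thus near absent from neurons and present in most Sox2-positive chambers.

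The theta and omega classes showed the same direction in fewer chambers. Gstt3 was detected in 8 of 20 Sox2-positive chambers with a highest value of 58, and in 1.19% of neurons (35.6-fold [29.4–43.2]). Gstt1 and Gstt2 were each detected in 3 of 20 chambers (29.8-fold [22.9–38.9] and 65.8-fold [48.6–90.2]), and without the highest chamber of each the ratios were 13.9 and 27.5. Gsto1, an omega-class enzyme that reduces dehydroascorbate, was detected in 10 of 20 chambers, with a median of 9.5 and an upper quartile of 56.8 counts, against 2.39% of neurons (33.8-fold [29.8–38.3]). Its neighbour Gsto2 on chromosome 19 was not called, with a ratio of 0.45 [0.32–0.63] and detection in 1 of 20 chambers against 11.6% of neurons.

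The pi and kappa classes did not separate the groups. Gstp1 had a median of 53 counts in Sox2-positive chambers (lowest 0, quartiles 35.2 and 72.8) and of 60 in neurons (lowest 0, quartiles 38 and 86.5), and was detected in 80% [56.3–94.3] and 81.8% [77.2–85.8] of them. Its ratio was 1.10 [1.03–1.17] and that of Gstp2 1.08 [1.01–1.16]. Gstk1, found in mitochondria and peroxisomes, had a ratio of 0.62 [0.52–0.75] and was detected in 15% against 23.6% of chambers.

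**Figure D3:**
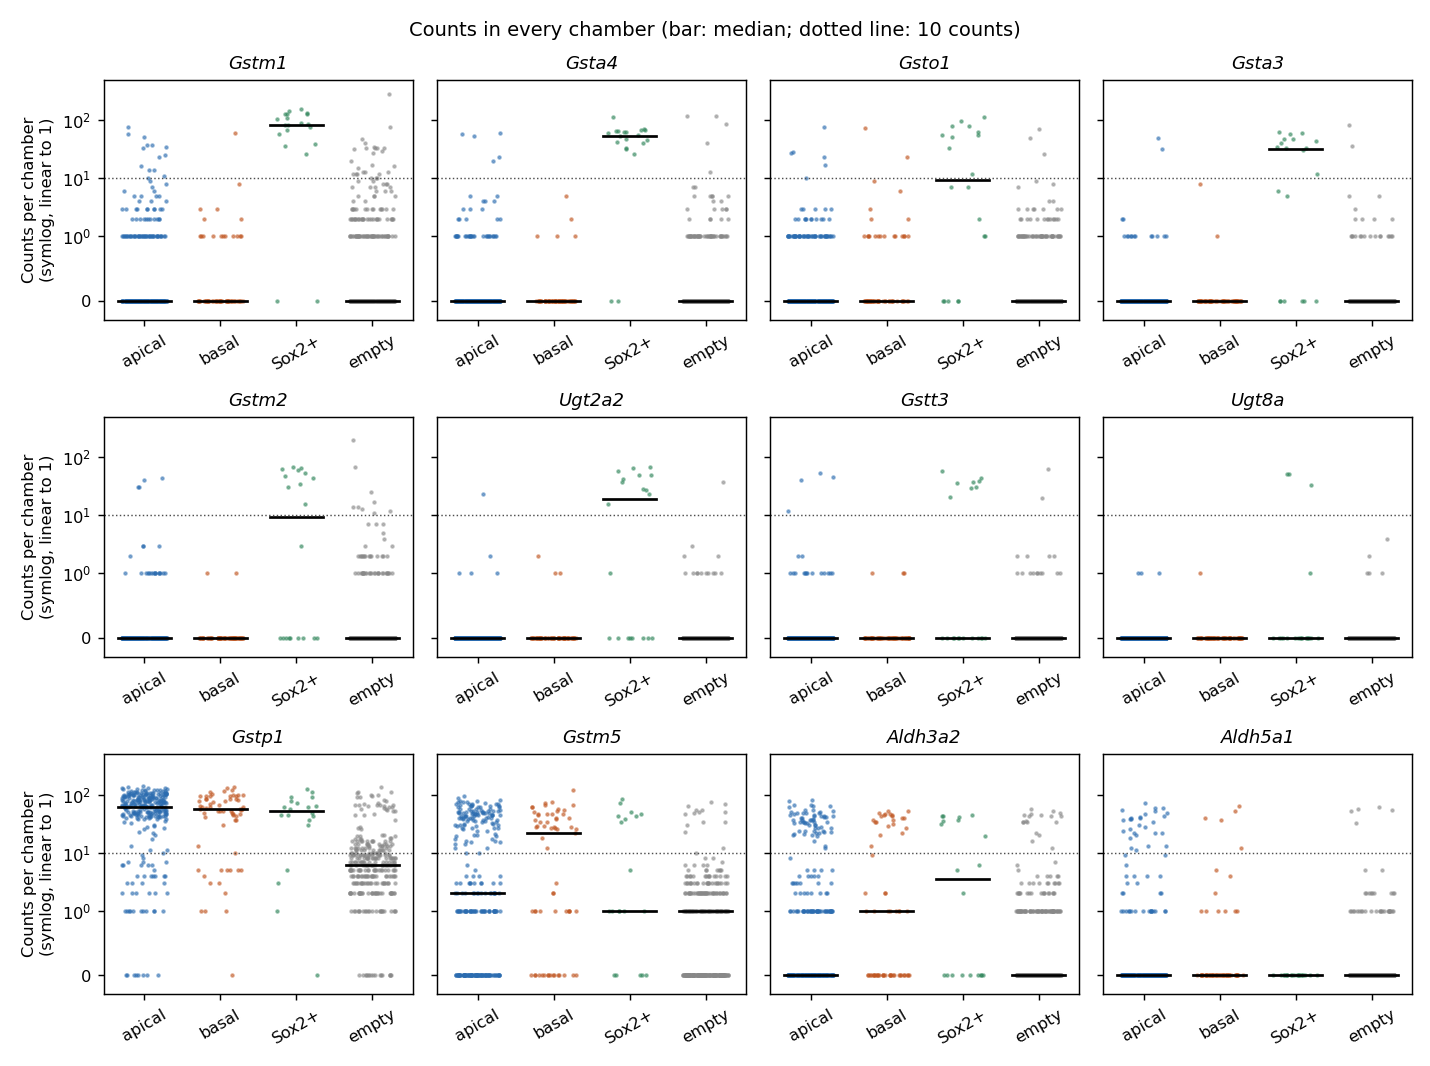
Counts per chamber (symlog axis, linear up to 1) of 12 enzyme genes in apical, basal, Sox2-positive and empty chambers, 1 point for each chamber, with the median as a bar and 10 counts as a dotted line. Sox2-positive chambers form a cloud above 10 counts for Gstm1 and Gsta4 with 2 chambers at 0, while Gstp1 is high in all 3 cell classes and Aldh5a1 has 0 counts in every Sox2-positive chamber.

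Of the Ugt genes, Ugt2a2 and Ugt8a had enough counts and both were called. Ugt2a2, of the olfactory glucuronosyltransferase locus on chromosome 5 (87459490–87482260, minus strand), had 0, 19.5 and 69 counts as the lowest, median and highest in Sox2-positive chambers. It was detected in 11 of 20 (55% [31.5–76.9]) and in 1 neuron (0.30% [0.01–1.65]), with a ratio of 299.7 [209.4–443]. Ugt8a, which makes galactosylceramide rather than conjugating foreign compounds, was detected in 3 of 20 chambers with a highest value of 52, and had 4 counts in all neurons together (ratio 707 [270–2631], or 471 without its highest chamber). Ugt2a3 and Ugt2b34 were each detected in 1 Sox2-positive chamber, at 20 counts, in both cases the chamber of title row 16, number 15. The other 5 Ugt genes had 0 counts in Sox2-positive chambers and at most 1 in neurons.

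Aldh genes gave the weakest separation. Aldh2, the mitochondrial acetaldehyde dehydrogenase, was 2.79-fold [2.36–3.28] higher in Sox2-positive cells (67.2 against 24.1 CPM) and was detected in 35% [15.4–59.2] against 14.0% [10.5–18.2] of chambers, intervals that overlap. Aldh9a1, an enzyme of carnitine synthesis, was 2.71-fold [2.13–3.40] higher, on 2 detected chambers of 20. Without its highest chamber the ratio was 1.52 and it was not called. Aldh1a1, which makes retinoic acid from retinal, was called 15.8-fold [11.6–21.5] higher, but all its 78 counts in Sox2-positive cells came from 1 chamber. Leaving out that chamber, it had 0 counts in Sox2-positive cells, and 0.67 is its ratio with that group set to the floor of 3 counts. Aldh3b2 had 2 chambers of 10 or more counts, against 2 counts in all neurons together (ratio 645.5 [171.4–5447]), and without the higher of them it had too few counts to be called. Without the 6 Sox2-positive chambers of 50 or more Omp counts, Aldh2 was not called either (ratio 1.87).

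Aldh3a2, the fatty aldehyde dehydrogenase, and Aldh7a1, an enzyme of lysine breakdown, stayed under the 2-fold limit. Aldh3a2 was detected in 40% [19.1–63.95] of Sox2-positive chambers and 25.4% [20.8–30.4] of neurons (ratio 1.87 [1.66–2.10]), and Aldh7a1 in 35% and 18.5% (ratio 1.87 [1.61–2.15]). Aldh18a1 (0.72), Aldh6a1 (1.12) and Aldh4a1 (1.52), which act on proline or branched-chain amino acids, were not called either.

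Aldh5a1, Aldh1a3 and Aldh16a1 were called higher in neurons. Aldh5a1, the succinic semialdehyde dehydrogenase of GABA breakdown, had 0 counts in the 20 Sox2-positive chambers and 1250 in neurons. With the Sox2-positive group set to a floor of 3 counts it was 20.3-fold lower, which is a floor value and not a lower limit. It was detected in 9.85% [6.88–13.6] of neurons, and 0 of 20 Sox2-positive chambers has an upper limit of 16.8%. Aldh1a3, a second retinal dehydrogenase, was 11.1-fold lower in Sox2-positive cells (1.99 against 22.02 CPM) with 13.1% of neurons detected, and Aldh16a1 was 7.56-fold lower with 6.27% of neurons detected. Aldh1a3 and Aldh16a1 were also detected in 0 of 20 chambers, so a lower share in Sox2-positive cells was not detectable with 20 chambers for any of the 3 genes. With the 1 single cell of 5 to 9 Sox2 counts added to the Sox2-positive group, the ratio was 0.46 for Aldh5a1 and 0.28 for Aldh1a3, and neither was called.

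**Figure D4:**
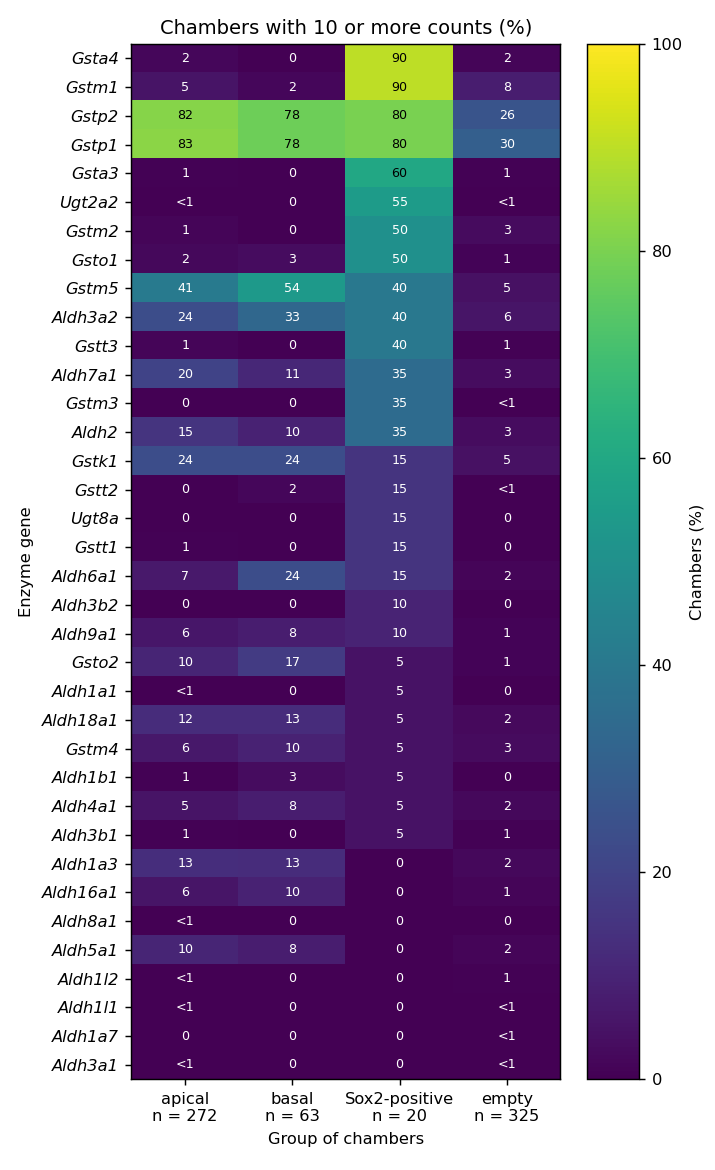
Share of chambers (%, colour and number) with 10 or more counts of each enzyme gene (vertical axis) in 4 groups of chambers. Gsta4 and Gstm1 reach 90% in Sox2-positive chambers and at most 5.15% in either neuron class, and the share of Gstp1 is near 80% in the 3 cell classes and 30.5% in empty chambers.

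The Sox2-positive chambers differed among themselves. The number of members detected in a chamber ran from 1 to 17 with a median of 9, against 0 to 12 with a median of 4 in neurons. Of the 20 chambers, 18 had at least 55 counts of Cbr2, a carbonyl reductase of sustentacular cells, and all 18 had at least 26 counts of Gstm1 and at least 26 of Gsta4. The other 2 (title row 31, number 2, and title row 35, number 20) had 1 count of Cbr2 each and 0 counts of Gstm1, Gsta4, Gsta3, Gsto1, Gstm2 and Ugt2a2. The first had the highest count of Gap43, a marker of young neurons, among the Sox2-positive chambers, and the second had 83 counts of Omp. Gstp1 reached 44 counts in 1 of these 2 chambers and was 0 in the other.

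Within the 18 chambers, the genes other than Gstm1 and Gsta4 that were called higher were not detected throughout. Gsta3 was detected in 12, Ugt2a2 in 11, Gsto1 and Gstm2 in 10 and Gstt3 in 8 of them, and the lowest value of each was 0. Gstt3 had 0 counts in the other 10 chambers, whereas Gsto1 had 1 to 9 counts in 5 chambers, Gsta3 in 2, and Gstm2 and Ugt2a2 in 1 each. Gstm3 had 1 to 9 counts in 8 of the 18 chambers, with a median of 6.5. Without the 2 chambers low in Cbr2, the same number of members, 15, was called higher in Sox2-positive cells.

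Immune markers also differed between these groups, through Cd74. Of 6 immune markers tested, Cd74 and Cd68 were higher in Sox2-positive cells, and Lyz2, C1qb, Tyrobp and Fcer1g were not called. Tyrobp and Fcer1g leaned the other way (ratios 0.062 and 0.17) and never exceeded 1 count in a Sox2-positive chamber. Lyz2 and C1qb were at 0 in all 20 chambers, as were Ptprc and C1qa, which had too few counts to be tested. Per 10000 counts of a chamber, the summed immune level was 0 to 10.5 in Sox2-positive (median 3.49), 0 to 18.2 in apical, 0 to 2.97 in basal and 0 to 22.2 in empty chambers (median 0 in these 3). Cd74 was at 10 or more counts in 17 of the 20. Without these 17, the 3 chambers left, which include the 2 low in Cbr2, gave 5 members called higher. The part of the Cd74 signal in the result was not tested.

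Between apical and basal neurons the members hardly differed. Of 30 members with enough counts, Gsta4 was called higher in apical neurons (3.33%, against a background of 6.4% of 17282 genes) and 0 were called higher in basal neurons (background 5.06%), and the median log2 ratio of 0.17 was near the 0.11 of all genes. Gsta4 was 6.79-fold [3.64–14.3] higher in apical neurons (6.83 against 1.01 CPM), but was detected in only 5 apical chambers (1.84%) and in 0 of 63 basal ones. Without the 55 neurons that had 10 or more counts of Cbr2 it was not called, because its mean fell to 0.749 counts per apical chamber, under the minimum of 1, while its ratio was 21.7. Aldh2 was called in its place.

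Gstp1 was detected in 82.7% [77.7–87.02] of apical and 77.8% [65.5–87.3] of basal chambers, with medians of 62 and 56 counts (ratio 1.12 [1.08–1.16]). Gstk1 was detected in 23.5% and 23.8% (ratio 0.96 [0.89–1.04]). Gstm5 was detected in 41.2% [35.3–47.3] and 53.97% [40.9–66.6], with medians of 2 and 22 counts, and its ratio was 0.80 [0.76–0.85]. Aldh3a2 was detected in 23.5% and 33.3% (ratio 0.76 [0.70–0.82]) and Gsto2 in 10.3% and 17.5% (ratio 0.65 [0.58–0.72]). None of these genes reached a 2-fold difference, and their intervals of the detected share overlapped.

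Aldh6a1, the methylmalonate semialdehyde dehydrogenase of valine breakdown, was detected in 23.8% [14.0–36.2] of basal and 6.99% [4.26–10.7] of apical chambers. It was the 1 member of 32 whose intervals did not overlap. That share is near the background (2.73% of 19064 genes higher in basal and 1.14% higher in apical neurons). Its level was 15.7 against 44.8 CPM, a ratio of 0.35 [0.31–0.40]. It was not called, because the ratio was 0.24 in title numbers 1 to 10 and 0.72 in 11 to 20. The latter is short of the 1.5-fold required in each range of title numbers. Aldh2 leaned the other way, with a ratio of 1.99 [1.66–2.40] that came to 1.32 and 10.4 in the same ranges, and Aldh7a1 had a ratio of 1.66 [1.47–1.89].

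**Figure D5:**
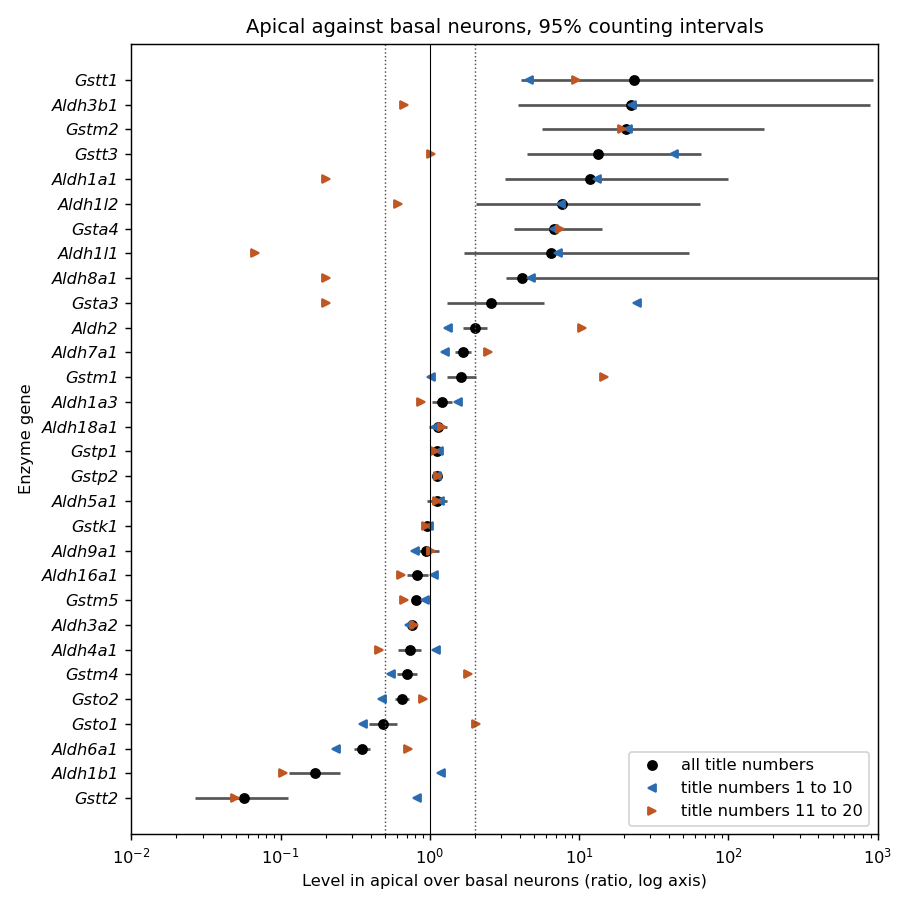
Ratio of the level in apical over basal neurons (log axis) for the 30 enzyme genes with enough counts, with 95% counting intervals, and the same ratio in chambers with title numbers 1 to 10 and 11 to 20. Genes detected in many cells, such as Gstp1, Gstk1 and Gstm5, lie near 1 in both ranges of title numbers, and dotted lines mark 2-fold. Rarely detected genes such as Aldh3b1 and Gstt3 change with the range of title numbers.

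Apical neurons were also divided by Gap43, into 91 with 10 or more counts and 55.9% of all apical neurons with under 3, leaving 29 between. Of 28 members, 0 were called higher in the Gap43-high cells (background 2.96%) and Aldh16a1 was called higher in the Gap43-low cells (background 3.31%), where its ratio was 0.48 [0.40–0.58] on detected shares of 4.40% and 7.24%. The median log2 ratio was −0.38 over the members and −0.01 over all genes. Gstp1 was detected in 83.5% of Gap43-high and 82.9% of Gap43-low cells, and Gstm5 in 31.9% and 46.1% (ratio 0.69 [0.64–0.73]). Aldh5a1 was detected in 17.6% and 5.26%, with a ratio of 2.80 [2.44–3.22] that fell short in title numbers 1 to 10 (1.23) and was 35.5 in 11 to 20.

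Empty chambers gave the background for detection, and it was not the same for all members. With each chamber thinned to 10000 counts (33 empty chambers were shallower and left out), at least 1 count of Gstp1 was found in 82.5% of empty chambers and 84.5% of neurons, against 95.1% and 97.3% before thinning. For Gstm5 the thinned shares were 35.6% and 43.6%, and for Aldh3a2 22.3% and 25.1%. For Gstm1 they were 26.4% in empty chambers, 6.57% in neurons and 90% in Sox2-positive chambers, and for Gsta4 13.4%, 2.99% and 90%. At this equal depth, Gstm1 and Gsta4 were thus found in a smaller share of neurons than of empty chambers, where they were unevenly spread (below). Values of 1 to 9 counts were not compared apart from higher ones.

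Of 34 members with enough counts, 0 were called higher in neurons than in empty chambers by CPM (background 3.68% of 18146 genes) and 3, Gstm1, Gstm2 and Gsta4, were called higher in empty chambers (background 0.97%). Gstm1 had 85.3 CPM in empty chambers against 13.4 in neurons (6.35-fold), Gstm2 34.4 against 3.39 (10.1-fold) and Gsta4 36.6 against 5.70 (6.42-fold). On mean counts per chamber instead of CPM, 15 members were called higher in neurons and 0 in empty chambers. No share over all genes is given for this rule, which does not correct for depth (median total 150630 in neurons and 20731 in empty chambers). These 15 calls are therefore not read as a result about the members. Gstp1 had a mean of 13.03 per empty chamber and 59.1 per neuron. Detected shares of 14 of 35 members were higher in neurons with intervals that did not overlap, a smaller part than the background of 51.3% of 19968 genes. Those of 0 members were higher in empty chambers (background 0.0351%).

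The counts of these genes in empty chambers were unevenly spread. The chamber of title row 9, number 17, had the highest total (319287 counts) and 37 counts of Sox2. Per 10000 of its counts it held 12.2 of Cbr2, 4.04 of Omp, 9.02 of Gstm1, 6.26 of Gstm2 and 3.66 of Gsta4. These were 25.02% of all Gstm1, 43.1% of all Gstm2 and 23.7% of all Gsta4 counts in empty chambers. It also held 84 counts of Gsta3, 79 of Aldh1a7, 42 of Aldh3a1 and 15 of Gstm6. Aldh1a7 and Gstm6 reached 10 counts in no single cell. Of the 24 other empty chambers with title number 17 and under 10 counts of Sox2, 15 (62.5%) had 10 or more counts of Gstm1 (mean 14.6), against 9 (3.02%) of such chambers with other numbers (mean 1.47). For Gstm2 these were 5 (20.8%) and 3 (1.01%). The empty chamber of title row 7, number 12, had 128290 counts, 60 of Sox2, 76 of Gstm1, 87 of Gsta4, 63 of Gstt3 and 37 of Ugt2a2. Without the 3 empty chambers that had 10 or more counts of Sox2, Gstm1, at 60.4 CPM, was the 1 member called higher in empty chambers than in neurons.

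Against empty chambers, 17 of 33 members were called higher in Sox2-positive cells (51.5%, background 14.9% of 14551 genes) and 0 lower (background 13%). The 17 called genes were the 15 called against neurons together with Gstm5 (2.20-fold [1.96–2.46]) and Aldh7a1 (2.18-fold [1.84–2.57]). Gstm1 was 7.81-fold [7.24–8.42] and Ugt2a2 46.5-fold [35.0–62.8] higher. Gstp1 was 1.35-fold [1.26–1.44] higher in CPM, short of the limit. By detected chambers, intervals did not overlap for 18 of 38 members higher in Sox2-positive cells (background 25.4%) and 0 lower (background 0.018% of 16707 genes).

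Outside the Sox2-positive group, 18 single cells had 10 or more counts of Gstm1, with a median of 33.5 and a highest value of 78, and 8 of them also had 10 or more of Cbr2. In neurons with 10 or more counts of Cbr2 (55 chambers) the level of Gstm1 was 41.4 CPM, and 7.88 CPM in the other neurons. Gstp1 stood at 368.7 and 387.01 CPM in the same sets.

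Neurons and empty chambers that shared both title row and title number with some Sox2-positive chambers had at least 1 count of Gstm1 in 42.7% (38 of 89) and 56.5% (35 of 62), against 18.1% (13 of 72) and 22.4% (22 of 98) of those that shared neither. For Gstp1 the shares were 97.8% against 100% of neurons and 93.5% against 93.9% of empty chambers. Detection at 10 or more counts of Gstm1 in neurons did not follow this order, with 3 of 89 and 5 of 72. Other genes high in Sox2-positive cells varied. In neurons at least 1 count was found in 20.2% against 9.72% for Gsta4, but in 20.2% against 29.2% for Gsto1 and 5.62% against 5.56% for Gstt3. In empty chambers Gsto1 was found in 37.1% against 20.4%.

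Other genes of the same pathways were taken from lists chosen with earlier results of these data known. The share of all genes called was 11.1% higher and 19.1% lower in Sox2-positive cells, against which the counts of each list are to be read. Of 25 tested genes of oxidation and reduction, 14 were higher in Sox2-positive cells and Cyp1b1 was lower (median log2 ratio 1.67, against −0.32 over all genes). They included the cytochromes P450 Cyp2a5 (72.8-fold [63.3–84.1]) and Cyp2a4 (111.02-fold [85.4–146.3]), the epoxide hydrolase Ephx2 (721-fold [303.3–2249], on 4 detected chambers) and the carboxylesterase Ces1d (70.9-fold [59.9–84.3]). Of 16 genes of glutathione supply and peroxide removal, 8 were higher and 0 lower (median 0.89). Gclc, the catalytic subunit of glutathione synthesis, was 2.93-fold [2.73–3.14] higher, the peroxidase Gpx2 47.5-fold [42.3–53.4] and the peroxiredoxin Prdx6 7.63-fold [7.30–7.98].

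Other conjugating enzymes went both ways, with 3 higher and 3 lower of 13 (median −0.11). The microsomal transferase Mgst1 (77.7-fold [67.04–90.4]) and the sulfotransferases Sult1a1 and Sult1e1 were higher in Sox2-positive cells, whereas Sult1d1, Sult2b1 and Nat2 were lower. Of 9 regulators and transporters, 4 were higher and 0 lower (median 0.13). Nfe2l2 was 2.63-fold [2.48–2.78] and its inhibitor Keap1 2.60-fold [2.32–2.91] higher, as were Ahr (3.23-fold) and Ugdh (2.94-fold), which makes the sugar acid that Ugt enzymes transfer. Of 16 retinoid genes, 6 were higher and 4 lower (median 0.83), with the retinoic acid binding protein Crabp1 (13.9-fold) higher and the retinoic acid hydroxylase Cyp26b1 at 0 counts in Sox2-positive cells.

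Between apical and basal neurons, 12 of the 72 tested genes of these 5 lists were higher in apical neurons (16.7%, background 6.4%) and 4 in basal neurons (5.56%, background 5.06%). The quinone reductase Nqo1 (5.75-fold), Gpx1 (6.27-fold), Gpx2, Prdx1, Nfe2l2 (2.19-fold), Ugdh, Cbr2, Pon3, Sult1d1, Dhrs3 (15.1-fold), Crabp1 (4.41-fold) and Rxra (3.62-fold) were higher in apical neurons, and Cyp1b1, Akr1b3, Ugp2 and Rdh12 (7.89-fold) in basal neurons. The sulfotransferase Sult1d1 had 22.2 against 0.402 CPM in apical and basal neurons. These folds rest on summed counts, and neither intervals nor shares of detected chambers are given for them here. Gpx1, Gpx2, Prdx1, Nfe2l2, Ugdh, Cbr2, Crabp1 and Rxra were also called higher in Sox2-positive cells than in neurons. Sult1d1 and Dhrs3 were called lower there, and Nqo1 and Pon3 neither way. A comparison of these genes without neurons of 10 or more Cbr2 counts is not given here.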

How the data were processed

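The counts were deposited by the authors as 1 table of whole numbers per gene and chamber and are not normalized. Tools named in the submitters' processing notes are STAR 2.5.4b, featureCounts 1.6.1 (Subread), UMI-tools 0.5.3, SAMtools 1.5 and bcl2fastq, with the GRCm38 (mm10) genome. The name of the deposited counts includes the words multimapping and fractional. How reads that map to several genes were divided is not described further in the sources used here. Of the table's columns, 1 held no sample and was not used.

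Counts were summed over the chambers of a group and scaled to 1000000 counts of the group without receptor genes (Vmn1r, Vmn2r and Fpr symbols). Ratios have exact conditional binomial and shares exact Clopper-Pearson intervals, both 95%, with a group at 0 counts set to 3. Chambers labelled multiple cells were kept apart and no doublet caller was run. The members, lists and tests were chosen with earlier results of these data known. Named genes were the 10 members with most counts in Sox2-positive cells and in neurons, those called, and called list genes (up to 12). Positions and transcripts came from GENCODE vM21 (GRCm38), where all 46 members matched, and promoters from RefSeq. Python 3.11.15, pandas 2.3.3, scipy 1.17.1 and, for 1 alternative scaling, edgeR 4.0.16 were used.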

Additional observations from a re-analysis of the deposited data

How the results depend on the processing

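No paired analysis was possible because replicate numbers in the groups only name chambers. With a group at 0 counts set to 3, all called members kept their direction under every alternative run except Aldh9a1, Aldh1a1, Gstm2 and Gsto1. Without Sox2-positive chambers of 10 or more Cd74 counts, Aldh3b2, Aldh1a1, Ugt8a, Gstm2, Gstm3, Gsto1, Gstt2 and Gstt3 had 0 counts in the Sox2-positive group. Their ratios in that setting were floor values, not measured directions. Against neurons, Aldh9a1 was at 0.68 in that setting, also a floor value from 0 counts. Without Sox2-positive chambers of 50 or more Omp counts it was measured at 0.051. Aldh1a1 was at 0.67 without the Sox2-positive chamber with the highest count. It was at 0.97 without those of 50 or more Omp counts, and both are floor values from 0 counts. Against empty chambers, Gstm2 was at 0.25 and Gsto1 at 0.42 without Cd74, both floor values, and Aldh9a1 at 0.10 without Omp.

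The number of members higher in apical neurons (1) was 0 with the G proteins over 1 time apart, with the cross-talk correction, and with 10 counts required in 25% of cells. It was 3 with no minimum, 2 in title numbers 1 to 10 and 3 in 11 to 20, and the number higher in basal neurons (0) was 10, 3 and 3. Higher in Sox2-positive cells than in neurons (15) came to 5 without Cd74, 26 with no minimum and 9 with the 25% requirement. Higher in neurons (3) came to 1 with Sox2 at least 5 and without Cd74, 8 without the highest chamber and 5 without Omp. It came to 0 with the 25% requirement, and to 5 and 6 in title numbers 1 to 10 and 11 to 20.

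Higher in neurons than in empty chambers (0) came to 15 on mean counts, 3 with empty chambers under the lower quartile of depth, 2 with equal weights, and 1 with G proteins over 10 times apart, with putative cells added, with the cross-talk correction and in title numbers 1 to 10, and 2 in 11 to 20. Higher in empty chambers (3) came to 0 on mean counts and with the 25% requirement, 21 with no minimum, and 1 in title numbers 1 to 10 and without empty chambers of 10 or more Sox2 counts. Higher in Sox2-positive than in empty chambers (17) came to 2 without Cd74, 28 with no minimum and 11 with the 25% requirement. Lower (0) came to 2 without Cd74, 3 without the highest chamber, 1 without Omp and 3 with no minimum. It came to 3 and 4 in the 2 ranges of title numbers. The alternatives without Cbr2-low or Sox2-high chambers, without title number 17 and without neurons of 10 or more Cbr2 counts were chosen after seeing the data. The cause of these shifts was not tested, and 0 of 20 Sox2-positive chambers allows a share of up to 16.8%.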

Other observations

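Chambers labelled multiple cells showed a different mixture of the enzymes. Of these 63 chambers, 10 had at least 10 counts of Sox2. Gstm1 was detected at 10 or more counts in 16 (25.4%), Gsta4 in 9 (14.3%), Gstm2 in 7 and Gsta3 and Gsto1 in 6 each. Ugt2a2 was detected in 0 of the 63, the 10 with Sox2 included, and never exceeded 2 counts. Among single-cell chambers chosen by Sox2 it was detected in 11 of 20. Gstp1 was detected in 56 of 63 (88.9%) and Gstm5 in 30 (47.6%).

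In the 39 unclassed single cells, Gstp1 was detected in 27 and Gstm5 in 11, and 1 chamber held 63 counts of Ugt2a2. In the 18 putative single-cell chambers, Gstp1 was detected in 9, Gstm5 in 2 and Gsta4 and Ugt2a2 in 0.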
